A study of Rattus norvegicus with 17 samples.

Results

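The remnant left kidney of rats that had lost the right kidney as well (5/6Nx) was set against the same remnant in rats that kept the right kidney (1/3Nx), which asks what the absence of the other kidney adds to the loss of tissue. Both remnants had the same part of the left kidney cut away. The 5/6Nx group held 6 male Sprague Dawley rats whose right kidney was removed with 2/3 of the left one, the 1/3Nx group held 6 that lost 2/3 of the left kidney only, and 5 sham-operated rats kept both kidneys intact. Per the labels, the animals arrived at 9 weeks of age, were operated on at 10 weeks, ate a 0.4% Dyets chow, and the left kidney was taken 6 weeks after surgery for sequencing of total RNA. The deposited expression tables hold 1 value per group and no value for a single rat, so the difference between the remnants has no error and no test.

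Genes were chosen by a rule on the sham level alone. Of 126306 features in each of the 2 deposited gene tables, 31195 carried 1 gene symbol, and 10106 of these had 1 FPKM or more in sham in the table of 5/6Nx against sham. FPKM counts sequenced fragments relative to transcript length and library depth, and the authors scaled it separately in each table. The sham values of the table of 1/3Nx against sham were 2.01 times those of the other table (lowest ratio 1.97, highest 2.04), so each remnant was divided by the sham value of its own table and levels are read only within a table. The measure used throughout is the log2 ratio of 5/6Nx to sham minus the log2 ratio of 1/3Nx to sham, each with 0.1 FPKM added, and it is called the difference between the remnants. A positive value means a higher relative level in the 5/6Nx remnant. A gene is called past the fold when the difference is 1 or more, or -1 or less, which is a fold of 2.

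A kidney that has lost nephrons keeps the survivors working harder: they enlarge, filter more and carry more salt and acid each, and over weeks scarring, inflammation and tubular injury follow. With a second kidney in place that load is shared, and without it the remnant carries all filtration and the animal becomes uraemic and usually hypertensive. The genes below are ordered by role, first injury, scarring and immune genes, then the nephron segments and their hormones, then stress and metabolism.

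Most of the 10106 genes lay within the fold. The difference had a median of -0.14 with quartiles at -0.52 and 0.33, it was above 0 in 41.8% of genes, and 87.5% stayed within the fold. There were 775 genes past the fold that were higher in 5/6Nx (7.67% of those measured) and 485 that were lower (4.8%). Because the median lay below 0, centring on it gave 1012 higher and 264 lower, so the share of higher genes among those past the fold was 61.5% as computed and 79.3% after centring. Relative to sham the median gene stood at -0.19 in 5/6Nx and -0.04 in 1/3Nx on the log2 scale.

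**Figure D1:**
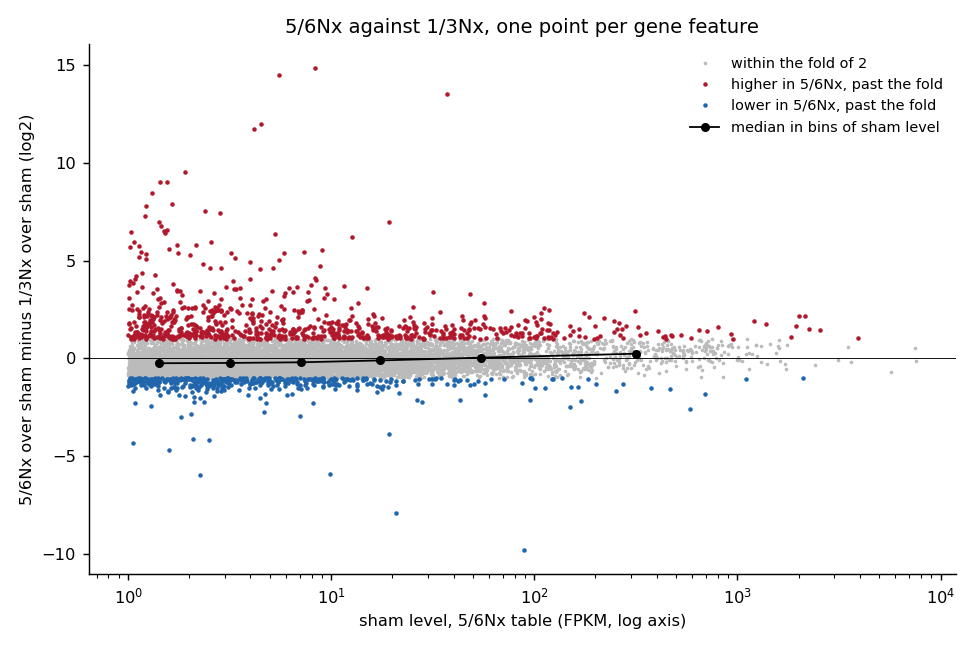
Difference between the remnants (vertical axis, log2) against the sham level in FPKM on a log axis, 1 point per gene, with genes past a fold of 2 in colour and the median in 6 bins of sham level as a black line. Most points lie within the fold, the 775 higher genes spread further from 0 than the 485 lower ones, and the bin median goes from -0.24 at 1 to 2 FPKM to 0.24 above 100 FPKM.

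The tests in the deposited tables set each remnant against sham. Among the genes measured, the authors' deposited table for 5/6Nx called 161 genes higher than sham (1.6%) and 10 lower (0.0993%) at a q-value under 0.05. For 1/3Nx the authors' deposited table called 357 genes higher (3.55%) and 343 lower (3.41%). Of the 775 genes higher in 5/6Nx by the fold, 150 were called above sham in 5/6Nx by the authors' deposited table, 94 were called below sham in 1/3Nx, and 528 were called in neither table. Of the 485 lower genes, 9 were called below sham in 5/6Nx, 29 were called above sham in 1/3Nx, and 445 were called in neither, again in the authors' deposited table. Both comparisons share the same sham rats, so these counts are not independent of each other.

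The genes of tubular injury stood above sham in both remnants and by a similar median. Of the 23 injury genes measured, 21 were above sham in 5/6Nx and all 23 in 1/3Nx, with median log2 ratios of 1.20 in 5/6Nx and 1.25 in 1/3Nx. Their median difference was 0.03, and 1 was past the fold higher and 0 lower. The authors' deposited table called 3 of them higher than sham in 5/6Nx and 18 in 1/3Nx, beside 1.6% and 3.55% over all genes.

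Lcn2, which encodes the injury marker lipocalin 2, had 67.8 FPKM in 5/6Nx against 4.96 FPKM in sham, and 83.6 FPKM in 1/3Nx against 9.90 FPKM in sham. Both remnants stood several times above their sham value, and the difference was 0.68 in favour of 5/6Nx. Spp1, which encodes osteopontin, had 1492 FPKM in 5/6Nx against 203 FPKM in sham, and 1729 FPKM in 1/3Nx against 407 FPKM in sham, a difference of 0.79. Lcn2 rose in both remnants in the authors' deposited table, with q = 0.0394 in 5/6Nx and q = 0.00183 in 1/3Nx, whereas Spp1 rose in 1/3Nx (q = 0.00183) and did not pass in 5/6Nx (q = 0.134). Vcam1, a leukocyte adhesion molecule of injured tubules and vessels, was the lowest of the list, with 2.94 FPKM in 5/6Nx against 1.95 FPKM in sham, and 11.5 FPKM in 1/3Nx against 3.91 FPKM in sham, a difference of -0.96.

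Cdkn1a, the gene of the cell cycle inhibitor p21, was the injury gene past the fold. It had 26.1 FPKM in 5/6Nx against 2.75 FPKM in sham, and 9.27 FPKM in 1/3Nx against 5.51 FPKM in sham, a difference of 2.46, and it rose in 5/6Nx in the authors' deposited table (q = 0.00485). In 5/6Nx, 19.9 of the 26.1 FPKM came from a single transcript that the authors' pipeline assembled and that was listed next to 0 in sham. Over the annotated transcripts of Cdkn1a alone, those with an Ensembl identifier, the difference was 0.15.

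Genes of the scar matrix were above sham in both remnants, and none of the 24 measured was past the fold in either direction. In 5/6Nx 22 of the 24 were above sham, against 23 of 24 in 1/3Nx, with median log2 ratios of 1.08 in 5/6Nx and 1.13 in 1/3Nx. Col1a1, a chain of fibrillar collagen, had 10.9 FPKM in 5/6Nx against 2.36 FPKM in sham, and 23.5 FPKM in 1/3Nx against 4.72 FPKM in sham, and its difference was -0.13. Fn1, which encodes fibronectin, had 13.6 FPKM in 5/6Nx against 4.58 FPKM in sham, and 34.3 FPKM in 1/3Nx against 9.21 FPKM in sham, a difference of -0.33. The extremes of the list were Eln, the gene of elastin, at 0.58 and Timp3, an inhibitor of matrix proteases, at -0.93. The list median of -0.12 lay next to the median over all genes of -0.14. The authors' deposited table called 2 of the 24 above sham in 5/6Nx and 17 in 1/3Nx, beside 1.6% and 3.55% over all genes.

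TGF-beta drives matrix synthesis, and the list of TGF-beta and BMP signalling holds ligands, receptors, transducers and antagonists. Of 19 measured, 14 had a difference below 0, the median was -0.43, and 2 were past the fold lower and 0 higher. Over all genes 4.8% were past the fold lower and 7.67% higher. Tgfbr3, the co-receptor betaglycan, had 1.65 FPKM in 5/6Nx against 2.65 FPKM in sham, and 7.53 FPKM in 1/3Nx against 5.34 FPKM in sham, a difference of -1.14. Bmpr1a, a BMP receptor, was at -1.10, and Tgfbr1, the signalling receptor of TGF-beta, was at -0.80. The ligand Tgfb1 was level between the remnants at 0.05, with 9.70 FPKM in 5/6Nx against 5.01 FPKM in sham, and 18.6 FPKM in 1/3Nx against 10.0 FPKM in sham. The antagonist Fst, follistatin, was highest at 0.72.

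Macrophage genes stood above sham to a like extent in both remnants, though the authors' deposited table called 0 of the 13 in 5/6Nx and 11 higher in 1/3Nx. Over all genes that table called 1.6% higher in 5/6Nx and 3.55% higher in 1/3Nx. All 13 measured were above sham in 5/6Nx and 12 of 13 in 1/3Nx, with median log2 ratios of 1.04 in 5/6Nx and 1.18 in 1/3Nx and a median difference of 0.03. Cd68, a lysosomal protein of macrophages, had 5.17 FPKM in 5/6Nx against 2.47 FPKM in sham, and 13.9 FPKM in 1/3Nx against 4.96 FPKM in sham, a difference of -0.43. Csf1r, the receptor that keeps macrophages alive, was at -0.23. Over annotated transcripts alone Cd68 stood at -1.31 and Csf1r at -0.64, and the list median was -0.06. The single member past the fold was Lgmn, the protease legumain, with 763.7 FPKM in 5/6Nx against 471.5 FPKM in sham, and 658 FPKM in 1/3Nx against 944 FPKM in sham, a difference of 1.22. Lgmn was the member of the list below sham in 1/3Nx, and its sham level lay far above that of Cd68. Which cells gave the Lgmn value was not tested. As these are whole remnants, fewer or more cells of a type and less or more RNA per cell cannot be told apart.

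Of 7 lymphocyte and plasma cell genes 6 were above sham in 5/6Nx and 7 in 1/3Nx, and of 11 complement genes 8 were above it in 5/6Nx and 11 in 1/3Nx. The median difference was -0.34 for the lymphocyte and plasma cell list and -0.56 for the complement list, in which 9 of 11 genes lay below 0. C3, the central complement protein, and Cd3g, a chain of the T cell receptor complex, were each at 0.04. Jchain, which joins secreted antibodies of plasma cells, had 10.8 FPKM in 5/6Nx against 1.01 FPKM in sham, and 50.6 FPKM in 1/3Nx against 2.03 FPKM in sham, a difference of -1.28. Jchain rose in both remnants in the authors' deposited table (q = 0.0118 in 5/6Nx, q = 0.00183 in 1/3Nx). Ccl2, the chemokine that recruits monocytes, differed by -1.04, with 3.38 FPKM in 5/6Nx against 1.90 FPKM in sham, and 13.98 FPKM in 1/3Nx against 3.82 FPKM in sham. Among 16 interferon-response genes, 14 had a difference below 0 and the median was -0.53. The lowest were Ddx58, a sensor of viral RNA, at -1.13 and the antiviral GTPase gene Mx2 at -1.12. Antigen presentation leaned the other way, with a median of 0.24 over 10 genes and Cd86, a costimulatory ligand, at 2.09.

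**Figure D2:**
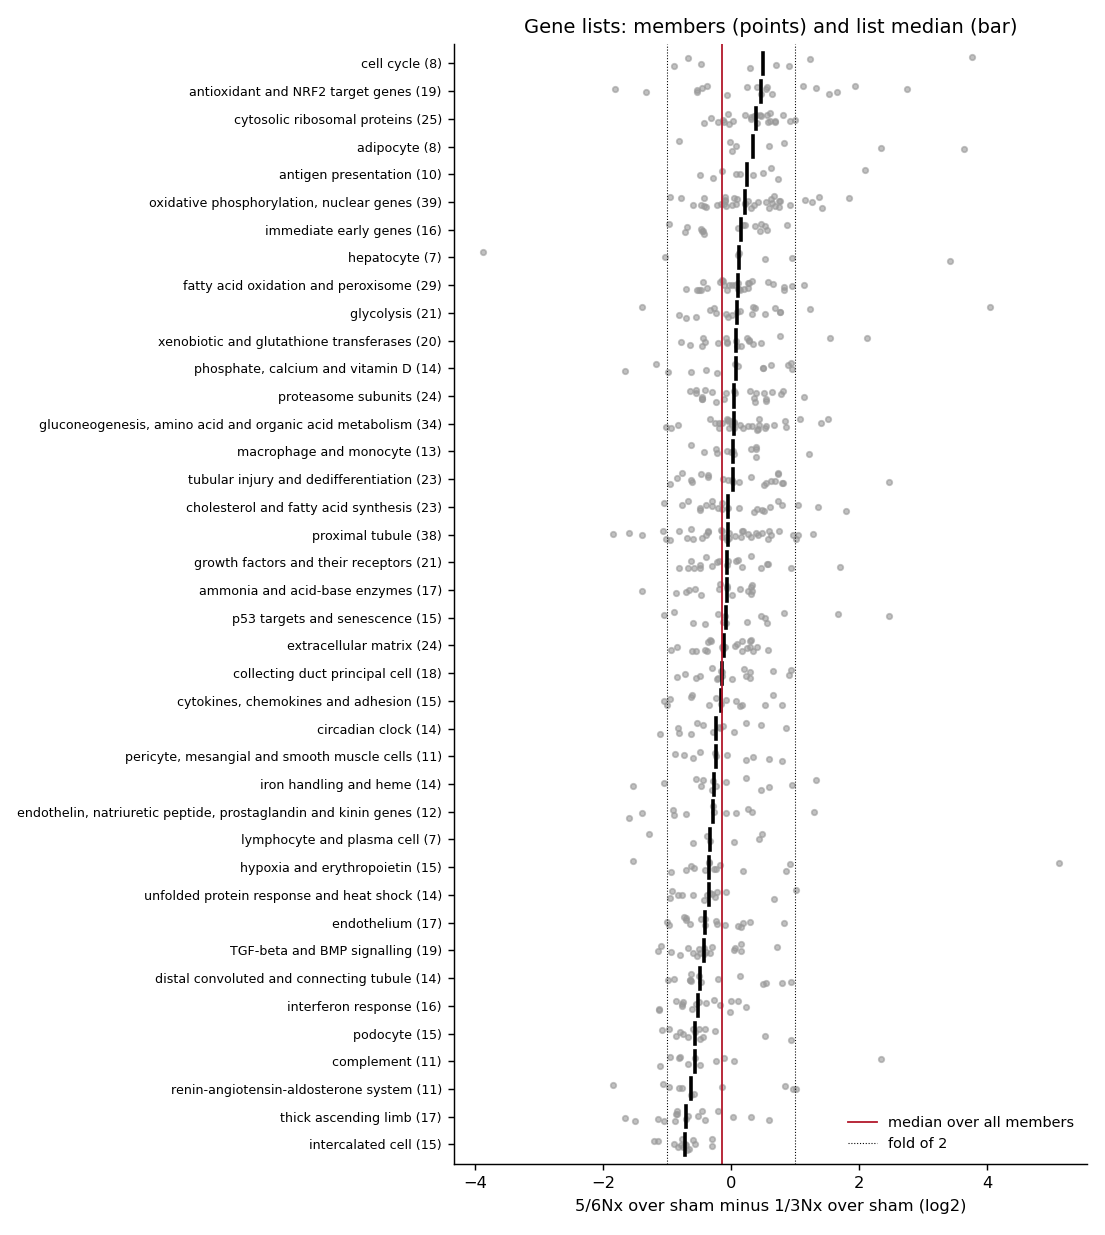
Difference between the remnants (horizontal axis, log2) for the measured genes of each of the 40 gene lists with 5 or more of them, with grey points for genes, black bars for list medians, a red line at the median over all genes (-0.14) and dotted lines at a fold of 2. The numbers after the names count the genes. Intercalated cell and thick ascending limb lie lowest, and cell cycle, antioxidant and ribosomal protein genes are at the top. Injury and matrix genes sit close to the red line. The 8 cell cycle genes have a median of 0.49, which is 0.25 over annotated transcripts. With a sham minimum of 5 FPKM, which fewer of the 8 reach, it is -0.57.

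Among the nephron segments, the lowest medians were those of the intercalated cell and the thick ascending limb. The thick ascending limb reabsorbs salt without water and makes the urinary protein uromodulin. Of its 17 genes measured, 14 lay below the median over all genes and 4 were past the fold lower, against 0 higher. Over all genes 4.8% were past the fold lower and 7.67% higher. The median log2 ratio to sham was -0.85 in 5/6Nx and -0.07 in 1/3Nx, a median difference of -0.71.

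Umod, which encodes uromodulin, had 467 FPKM in 5/6Nx against 1098 FPKM in sham, and 1943 FPKM in 1/3Nx against 2201 FPKM in sham, a difference of -1.05. Slc12a1, the sodium-potassium-chloride cotransporter that loop diuretics block, had 52.4 FPKM in 5/6Nx against 112 FPKM in sham, and 299.9 FPKM in 1/3Nx against 226 FPKM in sham, a difference of -1.51. Casr, the calcium-sensing receptor, had 1.02 FPKM in 5/6Nx against 2.74 FPKM in sham, and 6.88 FPKM in 1/3Nx against 5.53 FPKM in sham, a difference of -1.65. All 3 were below sham in 5/6Nx, and Slc12a1 and Casr were above it in 1/3Nx. Cldn16, a paracellular channel protein for magnesium and calcium, was the other member past the fold, at -1.15. None of the 17 passed in 5/6Nx in the authors' deposited table, where Slc12a1 had q = 0.291 and Umod q = 0.454, and 1 was called below sham in 1/3Nx. Over all genes that table called 0.0993% lower in 5/6Nx and 3.41% lower in 1/3Nx, so neither count sets this list apart.

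Intercalated cells secrete acid or bicarbonate in the collecting duct. All 15 of their genes measured had a negative difference, between -1.20 and -0.30, with a median of -0.72. In 5/6Nx 0 of the 15 were above sham, against 9 of 15 in 1/3Nx. The lowest was Slc4a1, the chloride-bicarbonate exchanger shared with red cells, with 5.23 FPKM in 5/6Nx against 11.5 FPKM in sham, and 24.4 FPKM in 1/3Nx against 23.1 FPKM in sham. Oxgr1, a receptor for oxoglutarate, was at -1.15 with none of its 5/6Nx FPKM in annotated transcripts, Foxi1, the transcription factor that specifies these cells, at -0.60, and Slc26a4, the bicarbonate exchanger pendrin, at -0.30. None of the 15 was called in either remnant in the authors' deposited table. Over all genes that table called 1.6% higher and 0.0993% lower in 5/6Nx, and 3.55% higher and 3.41% lower in 1/3Nx. The haemoglobin gene Hbb was lower too, with 79.4 FPKM in 5/6Nx against 144 FPKM in sham, and 289.7 FPKM in 1/3Nx against 288 FPKM in sham, and the part of red cells in the Slc4a1 value was not tested.

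The next segments differed less. In the distal convoluted and connecting tubule the median over 14 genes was -0.48 and none was past the fold, while over annotated transcripts alone 3 were past it lower. Kl, the gene of klotho, the co-receptor for the phosphate hormone FGF23, was lowest at -0.98, with 13.6 FPKM in 5/6Nx against 27.8 FPKM in sham, and 54.1 FPKM in 1/3Nx against 56.001 FPKM in sham. Annotated transcripts held 13.8% of the 5/6Nx FPKM of Kl, and over them it stood at -1.63. Slc12a3, the thiazide-sensitive cotransporter, lay on the other side at 0.49. Principal cells, which carry the water channel and the sodium channel of the collecting duct, had a median of -0.14 over 18 genes, equal to that over all genes at this precision. Aqp2, the vasopressin-regulated water channel, was at 0.20 and Scnn1a, a subunit of the sodium channel, at -0.14.

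**Figure D3:**
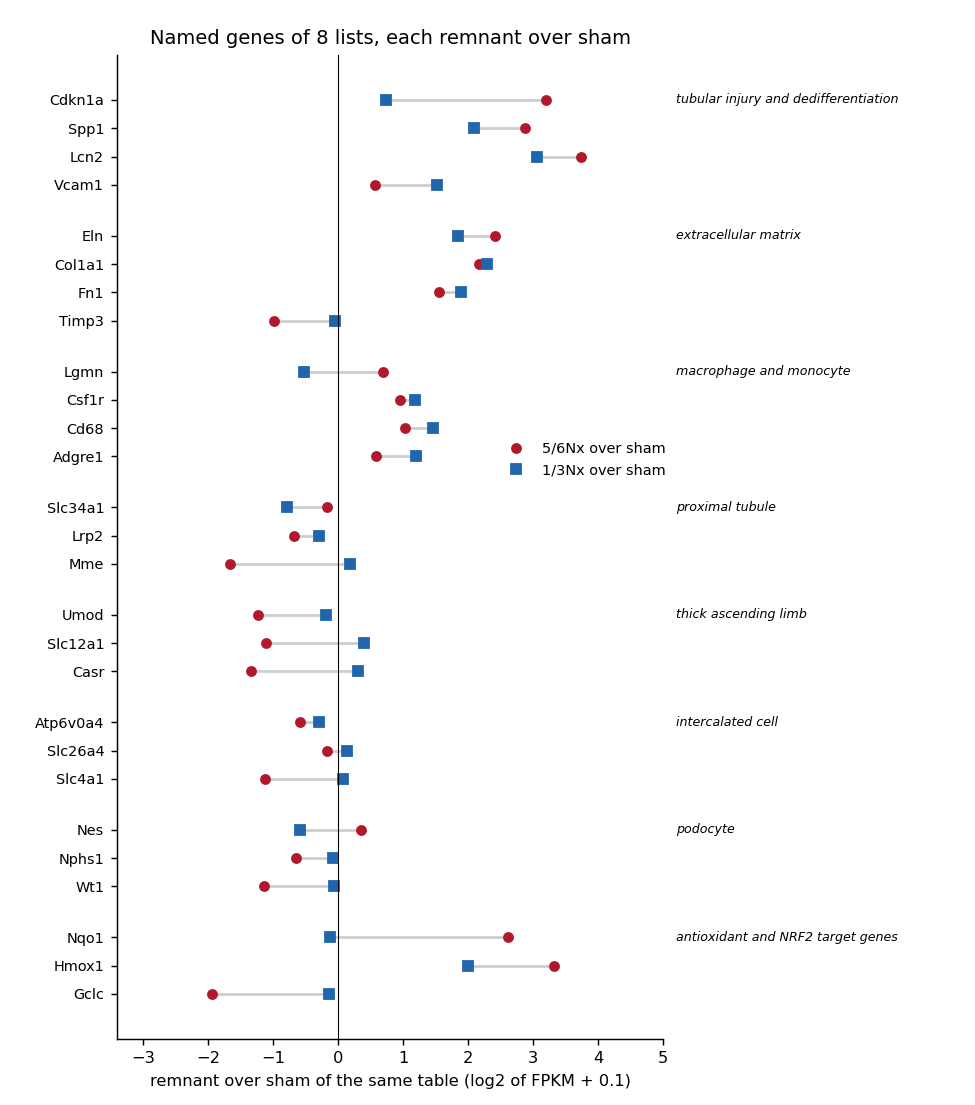
Log2 ratio to sham for named genes of 8 lists, with red circles for 5/6Nx and blue squares for 1/3Nx, each relative to the sham value of its own table, and the vertical line at the sham level. Injury, matrix and macrophage genes lie to the right of the line in most cases for both remnants, while Umod, Slc12a1, Casr, Slc4a1, Mme and Gclc lie to its left in 5/6Nx and near or above it in 1/3Nx.

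Podocytes, the filtering cells of the glomerulus, showed a median difference of -0.56 over 15 genes, of which 13 lay below 0. The lowest was Wt1, a transcription factor these cells need, with 0.759 FPKM in 5/6Nx against 1.80 FPKM in sham, and 3.44 FPKM in 1/3Nx against 3.61 FPKM in sham, a difference of -1.08. Nphs1, which encodes the slit protein nephrin, differed by -0.56. Endothelial genes had a median of -0.40 over 17 genes, with Sox17, an arterial transcription factor, lowest at -1.01 and Kdr, the main receptor for vascular endothelial growth factor, at 0.10. The largest transcript of Sox17 was an assembled one, with 0.732 FPKM in 5/6Nx against 0.772 FPKM in sham. Annotated transcripts of Kdr went both ways, with -0.60 for one of 3.50 FPKM in sham and 3.98 for one of 0.236 FPKM in sham.

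For the proximal tubule, which reclaims most of the filtrate, the median difference over 38 genes was -0.05. Of the 38 genes, 3 were past the fold higher and 5 lower, beside 7.67% higher and 4.8% lower over all genes. The share of higher genes was near that over all genes, and the share of lower genes was above it. Over annotated transcripts alone the list median was -0.53, with 0 past the fold higher and 11 lower. The lower ones were Mme, the brush border protease neprilysin, at -1.85, Slco4c1, an organic anion transporter, at -1.60, Slc9a3, the sodium-hydrogen exchanger, at -1.39, Anpep, an aminopeptidase, at -1.06, and Dpp4, a dipeptidyl peptidase, at -1.03. Mme had 17.98 FPKM in 5/6Nx against 56.9 FPKM in sham, and 131 FPKM in 1/3Nx against 115 FPKM in sham. Those higher included Napsa, an aspartic protease, at 1.04 and Ggt1, gamma-glutamyltransferase, at 1.01. Over annotated transcripts alone neither was past the fold, with Napsa at -0.12 and Ggt1 at -0.67, whereas the 5 lower ones stayed past it. Slc34a1, the main phosphate transporter, was at 0.62, with 799 FPKM in 5/6Nx against 899.6 FPKM in sham, and 1042 FPKM in 1/3Nx against 1801 FPKM in sham.

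The 12 lowest named genes include several solute carriers, enzymes and binding proteins. Slc7a13, an amino acid transporter of the straight proximal tubule, had 81.6 FPKM in 5/6Nx against 585 FPKM in sham, and 1000.4 FPKM in 1/3Nx against 1178 FPKM in sham, a difference of -2.60. Cyp2c11, a male-specific cytochrome P450 of the rat, had 1.36 FPKM in 5/6Nx against 19.2 FPKM in sham, and 42.8 FPKM in 1/3Nx against 38.6 FPKM in sham, a difference of -3.87. Cyp2c11 fell in 5/6Nx in the authors' deposited table (q = 0.0151) and did not pass in 1/3Nx (q = 0.812).

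Slco1a1, an organic anion transporter, was at -2.14, with 10.4 FPKM in 5/6Nx against 43.1 FPKM in sham, and 93.0 FPKM in 1/3Nx against 86.9 FPKM in sham. Rgn, the calcium-binding protein regucalcin, was at -2.18, Hnmt, which inactivates histamine, at -2.14, Gc, the vitamin D-binding protein, at -2.23, and Anxa13, an epithelial annexin, at -2.30. Cyp1a1, the cytochrome P450 that the aryl hydrocarbon receptor induces, had 1.10 FPKM in 5/6Nx against 7.04 FPKM in sham, and 18.6 FPKM in 1/3Nx against 14.2 FPKM in sham, a difference of -2.96. In each of these genes 1/3Nx lay within 0.39 of its sham value on the log2 scale and 5/6Nx at least 2.04 under it, but of the 12 lowest named genes the authors' deposited table called 1 in 5/6Nx, Cyp2c11.

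Among hormone genes the renin-angiotensin list had a median of -0.63 over 11 genes. Agtr1a, the receptor for angiotensin II, was at -0.81, with 4.79 FPKM in 5/6Nx against 8.41 FPKM in sham, and 17.02 FPKM in 1/3Nx against 16.9 FPKM in sham, whereas Agt, the precursor of angiotensin, was at 0.85. Ctsd, a lysosomal protease, was the member past the fold higher, at 1.01, and the 2 lower ones were Mme and Anpep, which also degrade peptides of this system and are given above. Of the vitamin D genes, Cyp24a1, which inactivates the hormone, was at 0.50 and Vdr, its receptor, at 0.96. Vdr stood at -0.14 over annotated transcripts alone. Npr3, the clearance receptor for natriuretic peptides, differed by -1.59. Ptgds, a prostaglandin synthase, lay past the fold on the other side, with 150.4 FPKM in 5/6Nx against 107 FPKM in sham, and 122 FPKM in 1/3Nx against 214 FPKM in sham. Igfbp1, which binds insulin-like growth factors, had 93.6 FPKM in 5/6Nx against 25.5 FPKM in sham, and 57.7 FPKM in 1/3Nx against 51.1 FPKM in sham, a difference of 1.70.

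Antioxidant genes included members with large differences in both directions. Many of them are induced by the transcription factor NRF2, which binds a short element in their control regions. Of 19 measured, 6 were past the fold higher and 2 lower, beside 7.67% higher and 4.8% lower over all genes. The median difference was 0.47, while the median log2 ratio to sham was -0.20 in 5/6Nx and -0.34 in 1/3Nx. The authors' deposited table called 1 of the 19 higher and 0 lower in 5/6Nx, and 1 higher and 4 lower in 1/3Nx. In 5/6Nx 8 of the 19 were above sham, against 1 of 19 in 1/3Nx.

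Hmox1, which breaks down heme, had 15.2 FPKM in 5/6Nx against 1.44 FPKM in sham, and 11.8 FPKM in 1/3Nx against 2.88 FPKM in sham, a difference of 1.32. It rose in both remnants in the authors' deposited table (q = 0.0461 in 5/6Nx, q = 0.00183 in 1/3Nx). Nqo1, a quinone reductase, had 14.8 FPKM in 5/6Nx against 2.33 FPKM in sham, and 4.29 FPKM in 1/3Nx against 4.66 FPKM in sham, a difference of 2.74. It missed the threshold in 5/6Nx in the authors' deposited table (q = 0.0829). The glutathione peroxidase genes Gpx1 and Gpx4 were at 1.93 and 1.13, and the metallothionein genes Mt1 and Mt2A at 1.66 and 1.53. By itself such a difference does not tell a rise in 5/6Nx from a fall in 1/3Nx.

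Both subunits of the enzyme that limits glutathione synthesis went the other way. The catalytic subunit gene Gclc had 181 FPKM in 5/6Nx against 694 FPKM in sham, and 1274 FPKM in 1/3Nx against 1397 FPKM in sham, a difference of -1.81. The modifier subunit gene Gclm was at -1.33. Each of these values rested wholly on annotated transcripts, and each was past the fold after centring. Neither subunit was called in 5/6Nx in the authors' deposited table, where Gclc had q = 0.254.

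The promoters of 4 of these genes are shown because they combine both directions with presence and absence of an NRF2-type element. They run from 250 bases before to 50 bases after the start of the gene, are taken from RefSeq on build GRCr8, and were picked after the values were seen. Capitals mark the motif TGACNNNGC, searched on both strands, whose first letters are shared with the AP-1 motif TGACTCA. It was found in 12.1% of 33469 rat promoters of this length, and in 7 of the 15 antioxidant genes with a promoter in that table. The first share counts promoters. The second counts genes, where a gene with several promoters counts if any of them holds the motif, so the shares are not of like units.
Nqo1, chr19:52220218-52220517, minus strand, no motif: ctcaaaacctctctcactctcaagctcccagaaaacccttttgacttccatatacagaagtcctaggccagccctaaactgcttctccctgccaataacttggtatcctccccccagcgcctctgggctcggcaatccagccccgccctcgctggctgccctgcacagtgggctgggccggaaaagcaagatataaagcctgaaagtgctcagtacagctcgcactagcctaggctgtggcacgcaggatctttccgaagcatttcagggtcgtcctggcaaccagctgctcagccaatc
Mt1, chr19:10832926-10833225, minus strand, 1 motif: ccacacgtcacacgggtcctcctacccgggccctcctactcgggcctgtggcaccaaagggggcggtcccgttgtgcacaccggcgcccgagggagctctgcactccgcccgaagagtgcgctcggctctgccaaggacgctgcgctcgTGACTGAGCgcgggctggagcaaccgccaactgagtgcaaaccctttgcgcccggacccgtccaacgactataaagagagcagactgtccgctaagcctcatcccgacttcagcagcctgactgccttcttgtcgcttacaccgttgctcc
Gclc, chr8:87510226-87510525, plus strand, no motif: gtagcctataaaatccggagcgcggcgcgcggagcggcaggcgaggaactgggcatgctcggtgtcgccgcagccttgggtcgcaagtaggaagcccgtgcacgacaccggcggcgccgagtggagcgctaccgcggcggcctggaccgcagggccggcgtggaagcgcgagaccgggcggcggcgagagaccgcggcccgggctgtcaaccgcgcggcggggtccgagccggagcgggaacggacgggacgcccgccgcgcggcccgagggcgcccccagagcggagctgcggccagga
Gclm, chr2:213031885-213032184, plus strand, 1 motif: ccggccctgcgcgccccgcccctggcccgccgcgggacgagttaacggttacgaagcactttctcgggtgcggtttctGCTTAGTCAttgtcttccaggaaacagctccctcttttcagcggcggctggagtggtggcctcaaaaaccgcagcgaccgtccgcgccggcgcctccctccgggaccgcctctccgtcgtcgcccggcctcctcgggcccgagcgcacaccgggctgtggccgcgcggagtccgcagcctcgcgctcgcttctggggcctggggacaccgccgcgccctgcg
Nqo1 and Gclc, at opposite ends of the list, both lack the motif in this window, and Mt1 and Gclm, higher and lower in 5/6Nx, both hold it. The 4 genes were chosen for this pattern, so it is no result, and whether the motif goes with the direction was not tested.

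Protein-folding genes leaned towards 1/3Nx. Of 14 unfolded-protein and heat-shock genes, 12 had a difference below 0 and the median was -0.35. Hspa5, the main chaperone of the endoplasmic reticulum, had 87.3 FPKM in 5/6Nx against 89.4 FPKM in sham, and 341.5 FPKM in 1/3Nx against 180 FPKM in sham, a difference of -0.96. It rose in 1/3Nx in the authors' deposited table (q = 0.00183) and did not pass in 5/6Nx (q = 0.987). Ddit3, the stress factor CHOP, was the exception past the fold at 1.01, with 37.8 FPKM in 5/6Nx against 19.1 FPKM in sham, and 37.2 FPKM in 1/3Nx against 38.1 FPKM in sham. Gdf15, a secreted stress signal, was at 1.67, with the remnants at 1.28 in 5/6Nx and -0.39 in 1/3Nx over sham.

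Mitochondrial genes stood below sham in both remnants, and somewhat less so in 5/6Nx. Of 39 nuclear genes of oxidative phosphorylation, 12 were above sham in 5/6Nx and 0 in 1/3Nx, with median log2 ratios of -0.31 in 5/6Nx and -0.55 in 1/3Nx. The median difference was 0.21, and 5 were past the fold higher and 0 lower, beside 7.67% higher and 4.8% lower over all genes. The 5 were Ndufs7 at 1.84 and Ndufa2 at 1.37 of complex I, Uqcrq of complex III at 1.26, and Atp5o at 1.41 and Atp5d at 1.14 of the ATP synthase. Over annotated transcripts Uqcrq stood at 0.32. Ndufs7 had 434 FPKM in 5/6Nx against 261 FPKM in sham, and 242 FPKM in 1/3Nx against 519 FPKM in sham, nearly all in 1 assembled transcript in every group, and its annotated transcript alone stood at -1.46. Cycs, which encodes cytochrome c, was lowest at -0.95. The authors' deposited table called 0 of the 39 in 5/6Nx and 7 lower in 1/3Nx. Over all genes it called 0.0993% lower in 5/6Nx and 3.41% lower in 1/3Nx. Over all genes of 100 FPKM or more in sham, the median difference was 0.24, with 5/6Nx at -0.14 and 1/3Nx at -0.41 over sham. The part of the sham level in the values of this list and of the ribosomal proteins below was not tested.

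Amino acid and organic acid metabolism had a median of 0.04 over 34 genes, with Prodh2, which degrades hydroxyproline, at 1.51. Prodh2 had 144 FPKM in 5/6Nx against 109 FPKM in sham, and 101 FPKM in 1/3Nx against 217 FPKM in sham. Fatty acid oxidation had a median of 0.10 over 29 genes, with Cpt1a, which admits fatty acids to mitochondria, at -0.14. Cytosolic ribosomal proteins had a median of 0.39 over 25 genes, 22 of them above the median over all genes, and none was past the fold. Rplp0 was at 0.80 and Rpl3 at 0.56.

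The median difference also ran along with the length of the locus. Loci shorter than 1 kb had a median difference of 0.33, those of 50 to 100 kb one of -0.31 and those over 100 kb one of -0.28. Each gene was also centred on the median of its length bin, which is read here beside centring on the median over all genes. The thick ascending limb stood at -0.47 by length and -0.57 by the overall median, podocytes at -0.32 and -0.42, intercalated cells at -0.72 and -0.58, interferon response at -0.45 and -0.39, and protein folding at -0.45 and -0.22. TGF-beta and BMP stood at -0.22 by length and -0.29 by the overall median, endothelium at -0.14 and -0.27, antioxidant genes at 0.53 and 0.60, oxidative phosphorylation at 0.21 and 0.35, and ribosomal proteins at 0.28 and 0.53. Each of these lists kept its sign by both centrings. The part of gene length in these values was not tested further.

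**Figure D4:**
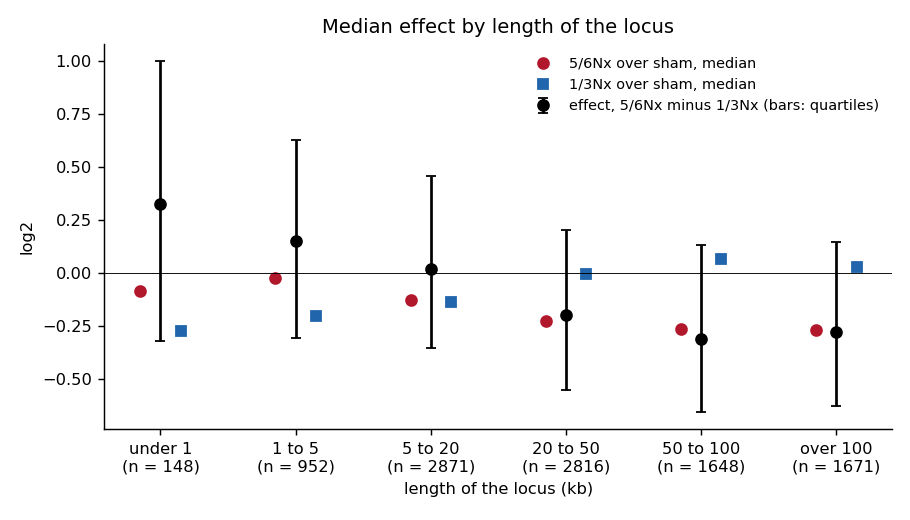
Median difference between the remnants by length of the locus (black, bars at the quartiles of the genes), with the median log2 ratio to sham of 5/6Nx (red circles) and of 1/3Nx (blue squares). The black points go from 0.33 under 1 kb to -0.31 at 50 to 100 kb, and the quartile ranges overlap between all bins.

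The largest positive differences were of another kind. Among the 12 highest named genes, 5 carried clone names and 4 were listed at 0 in 1/3Nx, for which no fold is given. Rmrp, the RNA of the RNase that processes ribosomal and mitochondrial RNA, had 225 FPKM in 5/6Nx against 12.7 FPKM in sham, and 5.81 FPKM in 1/3Nx against 25.3 FPKM in sham, a difference of 6.24. Vault, the small RNA of the vault particle, had 12.4 FPKM in 5/6Nx against 1.64 FPKM in sham, and was listed at 0 in 1/3Nx against 3.26 FPKM in sham. At the other end Mir762 and Mir6318, 2 microRNA loci, were listed at 0 in 5/6Nx. Mir762 had 89.2 FPKM in sham of that table, and 179.6 FPKM in 1/3Nx against 179.6 FPKM in its sham. The mature product of the locus is printed with its seed, bases 2 to 8, in capitals, as RefSeq gives it for GRCr8 at chr1:191754386-191754403, plus strand.
rno-miR-762: gCGGGGCUagggccggga
The table measures the locus and not the mature microRNA, and values of such short features are uncertain in libraries of this kind.

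Protein-coding genes at the top were Tnfaip8l1, a relative of an inflammation regulator, Zfp955a, a zinc finger gene, Usp54, a relative of ubiquitin proteases, Parp14, an ADP-ribosyltransferase, and Mdn1, a factor of ribosome assembly. Tnfaip8l1 had 223 FPKM in 5/6Nx against 1.21 FPKM in sham, and 2.65 FPKM in 1/3Nx against 2.42 FPKM in sham. It rose in 5/6Nx in the authors' deposited table (q = 0.0214), on annotated transcripts. Parp14 had 297.5 FPKM in 5/6Nx against 1.49 FPKM in sham, and 6.14 FPKM in 1/3Nx against 3.00 FPKM in sham, a difference of 6.54. In 5/6Nx 293 of these FPKM lay in 1 assembled transcript, which had 0.0045 FPKM in sham, and over annotated transcripts the difference was -0.01.

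Such transcripts were a wider feature of the 5/6Nx table. The FPKM of a gene's transcripts add up to that of the gene in the deposited tables, and the genes measured had 14386 annotated and 19566 assembled transcripts. Of 1971 assembled transcripts under 0.01 FPKM in sham in both tables, 94 reached 1 FPKM in 5/6Nx and 16 in 1/3Nx. They touched 4.77% of the genes higher in 5/6Nx by the fold and 0.881% of all genes. The median gene had 60.8% of its FPKM in annotated transcripts in 5/6Nx, 72.7% in 1/3Nx and 66.6% in sham.

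Over annotated transcripts alone, 445 of the 775 higher genes stayed past the fold and 211 turned negative, while 391 of the 485 lower genes stayed past it and 22 turned positive. Of the 150 higher genes that the authors' deposited table also called above sham in 5/6Nx, 77 stayed past the fold and 50 turned negative. Mcm6, a subunit of the replicative helicase, was at 3.76 and 0.42 by the 2 counts, Pfkfb4, a regulator of glycolysis, at 5.11 and 1.37, Pgam2, the muscle phosphoglycerate mutase, at 4.04 and 1.69, and F2, the gene of prothrombin, at 3.41 and -1.44. Nqo1, Gclc, Hmox1, Umod and Casr had the same difference by both counts, and Slco1a1, with 8.32% of its 5/6Nx FPKM annotated, stood at -2.85 over annotated transcripts and -2.14 in all.

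**Figure D5:**
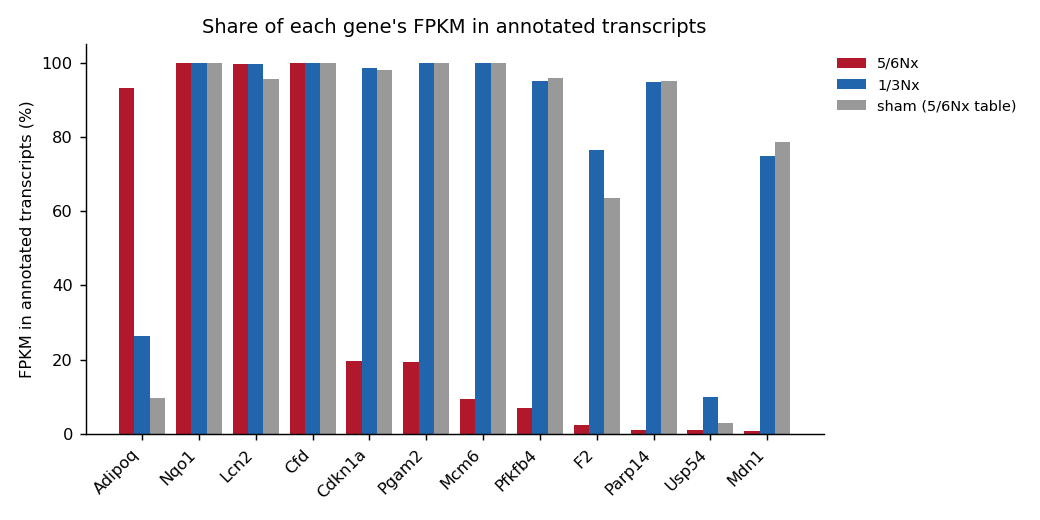
Share of each gene's FPKM that lies in annotated transcripts (vertical axis, percent) in 5/6Nx (red), 1/3Nx (blue) and sham of the 5/6Nx table (grey) for 12 genes chosen after their values were seen. Nqo1, Lcn2 and Cfd lie almost wholly in annotated transcripts in every group, Cdkn1a, Pgam2, Mcm6, Pfkfb4, F2, Parp14 and Mdn1 have 19.6% or less in 5/6Nx and most of it in the other groups, Usp54 has little in any group, and Adipoq shows the opposite order.

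Genes of other tissues differed between the remnants too. The summed FPKM of 13 adipocyte genes was 5.61 times sham in 5/6Nx and 2.16 times in 1/3Nx. Adipoq, the fat hormone adiponectin, had 115 FPKM in 5/6Nx against 6.75 FPKM in sham, and 18.3 FPKM in 1/3Nx against 13.5 FPKM in sham, a difference of 3.64, and Cfd, the fat-derived complement factor D, differed by 2.35. In 5/6Nx 106 FPKM of Adipoq lay in 1 annotated transcript, which had 0.12 FPKM in sham and 0.07 FPKM in 1/3Nx. Its other annotated transcript stood at -0.82 and its assembled one at 0.17. Adipoq and Cfd gave 115 and 122 of the 408 FPKM of the adipocyte sum in 5/6Nx. Sums of 12 muscle genes were 5.73 times sham in 5/6Nx and 2.34 times in 1/3Nx, with Mb, the gene of myoglobin, at a difference of 2.60. Mb alone gave 22.2 of the 48.4 FPKM summed in 5/6Nx, and 10 of the 12 genes were above sham in 5/6Nx against 12 in 1/3Nx. Of the 3 muscle genes that met the sham minimum, Mylpf went the other way at -1.66. The sum of 16 pancreatic acinar genes stood at 9.96 times sham in 5/6Nx and 7.07 times in 1/3Nx, and that of 12 islet genes at 17.7 times in 5/6Nx and 1.57 times in 1/3Nx. The islet ratios rest on values near 0, with a sham sum of 1.40 FPKM in the 5/6Nx table and 4 genes at 0 in sham. Ins1, an insulin gene, had 6.15 FPKM in 5/6Nx against 0.0146 FPKM in sham and was not called in the authors' deposited table (q = 0.306). Scg5, the 1 islet gene that met the sham minimum, differed by -0.04. Of the acinar sum in sham, Cela1 gave 102 of 103 FPKM in the 5/6Nx table and 203 of 206 FPKM in the other. Cela1 had 177 FPKM in 5/6Nx and 184 FPKM in 1/3Nx, so the acinar ratios understate the change of the other acinar genes. The defining acinar gene Prss1, trypsinogen, which lay under the sham minimum, had 179 FPKM in 5/6Nx against 0.226 FPKM in sham, and 229.6 FPKM in 1/3Nx against 0.451 FPKM in sham. Alb, the liver gene of albumin, had 0.553 FPKM in 5/6Nx against 0.59 FPKM in sham, and 39.05 FPKM in 1/3Nx against 1.19 FPKM in sham. The sum of 8 urothelial genes was 4.71 times sham in 5/6Nx and 3.92 times in 1/3Nx, and that of 18 hepatocyte genes 1.81 times in 5/6Nx and 1.31 times in 1/3Nx. Of the hepatocyte sum of 257 FPKM in 5/6Nx, F2 gave 62.3 FPKM, mostly in 1 assembled transcript, and 11 of the 18 genes were above sham in 5/6Nx against 16 in 1/3Nx. The sum of 8 adrenal genes was 2.62 times sham in 5/6Nx and 0.544 times in 1/3Nx, and that of 5 erythrocyte genes 0.533 times in 5/6Nx and 0.993 times in 1/3Nx. Of the adrenal sum, 1 assembled transcript of Cyp21a1 gave 9.14 of 14.9 FPKM in 5/6Nx and 3.73 of 5.69 FPKM in sham. Cyp21a1 was called in neither remnant in the authors' deposited table (q = 0.497 in 5/6Nx, q = 0.651 in 1/3Nx). Over annotated transcripts the adrenal list median went from 1.59 to -0.55. The part of such tissue in any result here was not tested.

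Values for single rats were those of sequencing quality. The 5/6Nx libraries mapped 82.7% ± 10.99 of their reads (SD, n = 6), the 1/3Nx libraries 89.0% ± 1.16 (SD, n = 6) and the sham libraries 87.7% ± 1.94 (SD, n = 5). In 5/6Nx, replicate 3 mapped 62.6% and replicate 5 mapped 77.2%, below every other library, and the remaining 4 mapped from 87.0% to 90.5%. The difference of -6.37 percentage points between the remnants did not pass a two-sided exact permutation test (p = 0.242, adjusted p = 0.323 over 4 measures, smallest possible p = 0.00216). Libraries held 71.9 ± 16.4 M reads in 5/6Nx and 70.3 ± 9.27 M reads in 1/3Nx (SD, n = 6 each), against 71.4 ± 4.59 M reads in sham (SD, n = 5). The same exact permutation test between the remnants gave p = 0.866 for reads, p = 0.234 for the share of bases reaching quality 30 (87.9% in 5/6Nx and 89.9% in 1/3Nx) and p = 0.236 for the mean quality score (33.6 in 5/6Nx and 34.01 in 1/3Nx). Because the expression values are given by group, no gene could be read without those 2 libraries.

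At the sham threshold of the rule, the 100 genes just above it, from 1.00 to 1.04 FPKM, had 14 past the fold higher and 12 lower, and the 100 just below it, from 0.950 to 1.00 FPKM, had 16 higher and 9 lower.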

How the data were processed

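Per the labels' protocols, total RNA was extracted with Trizol, made into TruSeq stranded libraries and read on an Illumina HiSeq. Small RNA is named there as well, which was left unresolved. Programs recorded in the submitters' processing notes are cutadapt, FastQC, TopHat2 2.1.1, StringTie and Cufflinks 2.2.1, with build rn5 and neither roles nor an order. The tables use names of sequences from later assemblies, so no position is printed from them.

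Per the file headers, the authors deposited for every gene and transcript a single FPKM for each group, beside a log2 fold change, p-values, q-values and a call. How the libraries of a group were combined is not given in the headers. The deposited sequencing summary holds, as the authors recorded them, for 17 libraries the read counts, a mean quality score, the percent of bases reaching quality 30 and of reads mapped, and the yield, a signal in gigabases. Depth behind an FPKM value is unknown, and no interval is given. A fit per library had been planned where the tables allowed one, and these hold group values only.

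Both gene tables were joined by feature, and 628 features with several names and 26 with names turned into dates were left out. Genes named are the 12 largest and 12 smallest differences past the fold with 5 FPKM or more in 5/6Nx or sham and no placeholder name, and in each of 47 gene lists the first 2 members and both extremes. Other members were named to complete a count or after their values were seen, and the lists hold 1006 genes, of which 683 were measured. Some genes that this rule names are not reported here. The genes and the lists were chosen with earlier results of these data known. Values are log2(FPKM + 0.1), which understates changes of low genes. Overlapping genes and near-identical copies may share reads in these values. Library measures were compared by exact permutation of the 12 remnant libraries with Benjamini-Hochberg adjustment. Python 3.11.15, pandas 2.3.3, numpy 2.4.6, scipy 1.17.1 and matplotlib 3.10.9 were used, and the scripts were tested on simulated data. Alternatives were other pseudocounts, sham minima, folds, centrings, the deposited fold changes, transcript sums, annotated transcripts, placeholder names and locus length, the last 3 kinds chosen after seeing the data.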

Additional observations from a re-analysis of the deposited data

Results flagged for a closer look

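The library of 5/6Nx replicate 5 had 104 M reads, set apart from the other 5 libraries of its group, which had between 59.0 and 73.0 M reads. It was 1 of 12 groups of values looked at, and chance sets apart about 1 in 20 such groups.

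Outside the named genes, 71884 features with no name that were listed at 0 in sham in both tables had 1 FPKM or more in 5/6Nx, against 24 such features in 1/3Nx. FPKM summed over all features came to 6213289 in 5/6Nx, of which the genes measured here held 400305, and to 653631 in 1/3Nx, of which they held 618897. Their part in the values of named genes was not tested.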

How the results depend on the processing

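The 775 higher and 485 lower genes became 399 and 182 with a sham minimum of 5 FPKM (5854 genes), 2580 and 987 with any sham value above 0 (17891 genes), 1625 and 2146 at a fold of 1.5, and 420 and 230 over loci of 5 to 50 kb (5687 genes), where the number of genes or the fold differs by construction. The lower count alone moved to 188 with a pseudocount of 1 FPKM, 264 after centring on the median, 284 after centring by locus length and 1574 over annotated transcripts, where the median difference was -0.32. The higher count was 1334 over annotated transcripts after centring.

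Among 179 named genes and the lists, the direction of a value past the fold turned under none of the alternatives set out at the start. For genes, several of these could not turn it. Other sham minima and transcript sums leave a gene's own value unchanged, and centring on the median of -0.14 moves it by less than the fold. List medians within the fold did turn: 6 with a sham minimum of 5 FPKM, among them cell cycle (0.49 to -0.57), lymphocyte and plasma cell (-0.34 to 0.48) and immediate early genes (0.15 to -0.42), 7 after centring on the median, 8 after centring by locus length, 4 over loci of 5 to 50 kb, 8 over annotated transcripts and 1 with a pseudocount of 1 FPKM. With the sham minimum of 5 FPKM these 3 lists keep fewer genes. The lymphocyte and plasma cell value of 0.48 equals the highest single value of that list. Over annotated transcripts the direction turned, beside Napsa and Ggt1, which are not among the 179, for Psmc5 (-0.26), Ndufs7 (-1.46), Cyp21a1 (-0.71), F2 (-1.44), Mdn1 (-0.50), Parp14 (-0.014) and the adrenal list (-0.55), and after centring these for Ndufs7 (-1.14), Cyp21a1 (-0.40), F2 (-1.13), Mdn1 (-0.18), the adrenal list (-0.24) and Sox17 (0.088). The cause was not tested.

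The difference in reads per library, 1.63 M, became -0.47 M by medians. Leaving out each library in turn gave -4.69 to 4.22 M reads, -7.93 to -2.35 percentage points mapped, -0.466 to -0.135 in mean quality and -2.46 to -0.71 points of bases of quality 30 or more. The read difference was -4.69 M without 5/6Nx replicate 5 and -0.48 M without 1/3Nx replicate 5, and the quality 30 difference reached p = 0.0498 by the exact permutation test without 5/6Nx replicate 2. Leaving out a library could not be done for expression. No paired analysis was possible because the expression tables carry no replicate values.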
